A study of Mus musculus with 23 samples.

Results

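The 2 vectors of the pool that carried guide RNAs against Ampk1 and Ampk2 are described here across all mice of the study. They were found by the gene names in the vector column of the table, which named 26 vectors, 24 of them directed against 12 genes. Ampk1 and Ampk2 are 2 of those 12 genes and were always targeted together. One vector was a dual vector with 2 guide cassettes and the other a triple vector with 3. In the 21 analysed mice they gave 18440 tumours for the dual vector (5.67% of all tumours of named vectors) and 6579 for the triple vector (2.02%).

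AMPK is the kinase that senses a fall in cellular energy. It is a complex of a catalytic alpha subunit with beta and gamma subunits, and the alpha subunits alpha1 and alpha2 are encoded in the mouse by Prkaa1 and Prkaa2. The tumour suppressor kinase Lkb1 (Stk11) switches AMPK on by phosphorylating the alpha subunit. It does the same to a family of AMPK-related kinases, among them the Sik, Nuak, Mark and Snrk kinases that other vectors of the pool targeted. Active AMPK restrains lipid and protein synthesis and promotes the recycling of cell contents, so it has been described both as a mediator of Lkb1 in tumours and as a support of tumour cells under energy stress. The names Ampk1 and Ampk2 are kept here as the table writes them.

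The data are Tuba-seq data, in which lung tumours are started by barcoded lentiviral vectors that also carry Cre, and the tumours are counted and sized by sequencing the barcodes in genomic DNA of the whole tumour-bearing lung. All mice carried the Cre-dependent reporter R26LSL-Tomato in a mixed BL6/129 strain, and tumours grew for 4 months. KT mice (5 labelled, 4 analysed) had no Cas9, so that the guides could not cut. KT_Cas9 mice (10 of 10 analysed) had Cre-dependent Cas9 from H11LSL-Cas9, and KTL_Cas9 mice (8 labelled, 7 analysed) had that allele and Lkb1flox/flox, so that Cre also deleted Lkb1 in the tumours they bore. The labels give neither the age of the mice, nor the infected cell type, nor the vector dose, and the extent of cutting at Ampk1 and Ampk2 was not analysed here.

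Both vectors carried the Ampk1 guide behind the mU6 promoter and the Ampk2 guide behind the hU6 promoter, and the triple vector had a bU6 cassette with the inert guide sgNeo1 in addition. The matching inert vectors had only guides against a neomycin resistance gene (Neo) or non-targeting guides (NT). The identifiers by which the table assigned each read to a vector are shown because every tumour below was given its genotype by these letters alone. All are 8 bases long and shown in capitals throughout, since the whole sequence is read.
dual Ampk1/Ampk2 identifier: GCATTGAG
dual inert identifier: AATCCGGT
triple Ampk1/Ampk2 identifier: ACGTACAG
triple inert identifier: AATTGCCG
The identifier of the dual Ampk1/Ampk2 vector differed from that of every other named vector at 3 or more of the 8 positions, and that of the triple vector at 4 or more.

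Within a vector, each clone carried its own 30-base barcode. The barcodes of each vector's largest clone in KT_Cas9 and in KTL_Cas9 mice are shown because these clones held between 39.1% and 81.3% of the vector's cells in their mouse, with the fixed bases of the design in capitals and the random bases in lower case.
dual, largest clone in KT_Cas9 replicate 6: GCataaaTAaataaGCtaaaaTAataagGC
dual, largest clone in KTL_Cas9 replicate 3: GCctgctTAattttGCatgctTAtggtaGC
triple, largest clone in KT_Cas9 replicate 1: GCaatacTAggcagGCaggacTAaggcgGC
triple, largest clone in KTL_Cas9 replicate 4: GCctctgTActcccGCtggttTAtttgtGC
The dual clones had 35764 reads in KT_Cas9 replicate 6 and 72680 in KTL_Cas9 replicate 3, and the triple clones 23796 in KT_Cas9 replicate 1 and 56378 in KTL_Cas9 replicate 4. Outside its own mouse the barcode of the dual KT_Cas9 clone was seen in 2 more mice with at most 15 reads, and that of the dual KTL_Cas9 clone in none. The barcode of the triple KT_Cas9 clone was seen in 1 more mouse with 4 reads, and that of the triple KTL_Cas9 clone in 2 with at most 6 reads.

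Barcodes with 500 or more estimated cells were counted as tumours, and each mouse was a replicate. Total reads of named vectors ran from 92713 to 8547188 per analysed mouse, and the floor of 500 cells corresponded to between 3.13 and 51.7 reads. KT replicate 4 had no lines in the table, and KTL_Cas9 replicate 1 had 17 tumours and no inert tumour, so neither entered a comparison. The number of inert tumours sets how well each ratio is known. Dual inert tumours numbered 40 to 219 per KTL_Cas9 mouse and 91 to 3128 per KT_Cas9 mouse. Triple inert tumours numbered only 21 to 26 in KTL_Cas9 replicates 2, 3, 7 and 8, against 88 to 103 in the other 3, and 27 and 38 in KT_Cas9 replicates 2 and 5. All triple vectors share that denominator, so an error in it moves them together.

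Whether the guides changed tumour size was asked first in Lkb1-proficient tumours, by comparing KT_Cas9 with KT mice. Tumours with either Ampk1/Ampk2 vector were on average within 1.10 times the size of inert tumours in the same mice, with Cas9 or without it. Size was the log-normal mean number of cells per tumour, and each value is its log2 ratio to the inert vector of the same design in the same mouse. In KT mice, where no guide can cut, the dual vector lay at 0.08, 0.10, -0.01 and -0.03 in replicates 1, 2, 3 and 5. The triple vector lay at -0.10, 0.19, 0.05 and 0.01 in the same mice. All 8 of these values were thus within 0.2 of 0 on the log2 scale, which shows how far the measure strays in mice without Cas9.

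In KT_Cas9 mice the dual vector had a lowest size ratio of -0.09, a median of 0.09 and a highest of 0.25, with 6 of 10 mice above 0. The mean was 0.08 ± 0.13 (SD, n = 10) on the log2 scale, a ratio of 1.06 to inert. The values of both groups overlapped, 5 of the 10 KT_Cas9 mice lying above all KT mice and 3 below all of them. The difference between KT_Cas9 and KT was 0.04 ± 0.05 (SE), with a 95% interval from -0.11 to 0.19, and did not pass the test (two-sided exact permutation of mouse labels, adjusted p = 0.610 over the 24 targeting vectors). The interval corresponds to sizes between 0.928 and 1.14 times those without Cas9. In this comparison 13 of the 24 targeting vectors (54.2%) were called, all of them larger with Cas9, and neither Ampk1/Ampk2 vector was among them. The median difference over all 24 was 0.76.

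The triple vector varied more between the same mice. Its size ratio in KT_Cas9 mice ran from -0.73 to 1.39 with a median of 0.05, and 6 of 10 mice lay above 0. The lowest value was that of replicate 6, where 1 clone held 77.9% of the cells of the triple inert vector, and the highest that of replicate 2, which had 27 triple inert tumours. With only the largest triple Ampk1/Ampk2 tumour left out, and all inert tumours kept, the ratio of replicate 6 was -0.81. That step changes the Ampk1/Ampk2 side alone, so it does not bear on the inert clone. The part of the inert clone in this ratio was not tested. Replicate 5, with 38 triple inert tumours, lay at 0.05. The mean was 0.14 ± 0.53 (SD, n = 10) and the difference from KT 0.10 ± 0.18 (SE), with a 95% interval from -0.48 to 0.72 (exact permutation, adjusted p = 0.716). This vector alone therefore bounds the size with Cas9 only to between 0.715 and 1.64 times that without. The difference was -0.04 when the 2 KT_Cas9 mice with fewer than 50 triple inert tumours were left out. Among the targeting vectors ordered by this difference from lowest to highest, the dual vector stood at rank 2 and the triple vector at rank 6.

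**Figure D1:**
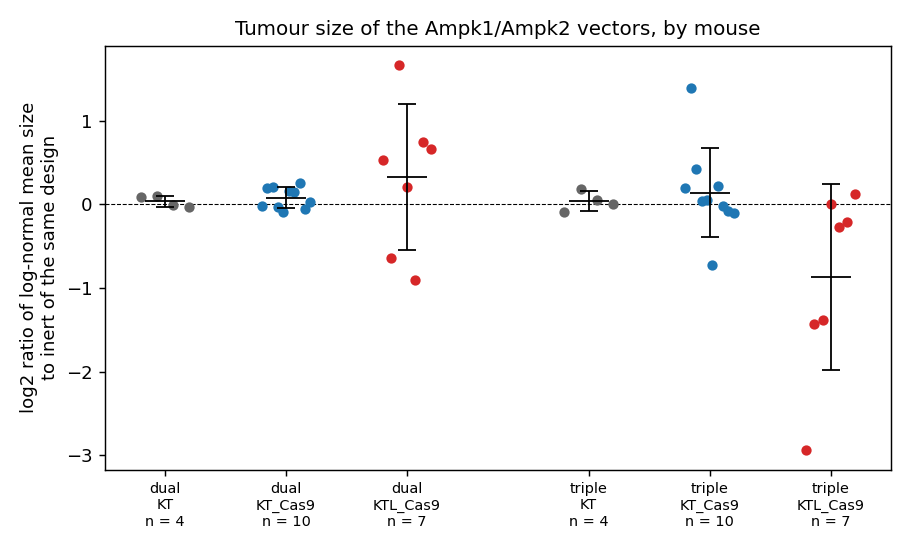
Tumour size of both Ampk1/Ampk2 vectors, as the log2 ratio of the log-normal mean size to that of the inert vector of the same design (y axis), for each analysed mouse (points) of the 3 genotypes (x axis); bars give mean and SD. The KT and KT_Cas9 means lie between 0.04 and 0.14 for both vectors, whereas in KTL_Cas9 mice the dual vector has a mean of 0.32 and the triple vector one of -0.87.

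The plot of size by mouse shows the tight KT values, the tight dual values in KT_Cas9 mice, and the wider spread of both vectors in KTL_Cas9 mice. The dual vector lay at 1.66 and -0.91 in KTL_Cas9 replicates 4 and 6, with 219 and 187 dual inert tumours. Any relation of the spread to the inert tumour number was not tested. In absolute terms the dual Ampk1/Ampk2 tumours of KT_Cas9 mice had a geometric mean size of 1390 cells against 1315 for dual inert tumours. In KT mice the corresponding sizes were 2142 and 2087 cells. Triple Ampk1/Ampk2 tumours had 1415 cells in KT_Cas9 mice against 1285 for triple inert tumours, and 2292 against 2232 in KT mice.

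The size distributions were then compared percentile by percentile, since a change limited to the largest tumours could escape a mean. For the dual vector in KT_Cas9 mice, the log2 ratio to inert was 0.05 ± 0.07 at the 50th percentile, 0.09 ± 0.18 at the 90th and 0.15 ± 0.31 at the 95th (SD, n = 10). At the 99th percentile it was -0.03 ± 0.92. Every one of these means was smaller than the spread between mice. The share of dual Ampk1/Ampk2 tumours larger than the 95th percentile of dual inert tumours was 5.55% ± 1.82 in KT_Cas9 mice, against 5.11% ± 0.150 of the inert tumours themselves. In KT mice that share was 4.71% ± 0.593.

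The triple vector in KT_Cas9 mice had ratios of 0.11 ± 0.29 at the 50th percentile, 0.33 ± 0.75 at the 90th and 0.42 ± 0.73 at the 95th, and -0.66 ± 2.09 at the 99th (SD, n = 10). Its share above the 95th percentile of triple inert tumours was 11.7% ± 14.5 on average, with a median of 8.25% and a highest value of 52.2%. The means rise with the percentile up to the 95th, but the SD exceeds the mean at each of these percentiles. No percentile mean of the Ampk1/Ampk2 vectors thus exceeded the spread between KT_Cas9 mice. That spread is not the error of a mean, so the comparison is no test of closeness to inert. At the 50th percentile the dual vector lay above inert in 4 KT_Cas9 mice, below it in 0 and equal to it in 6.

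**Figure D2:**
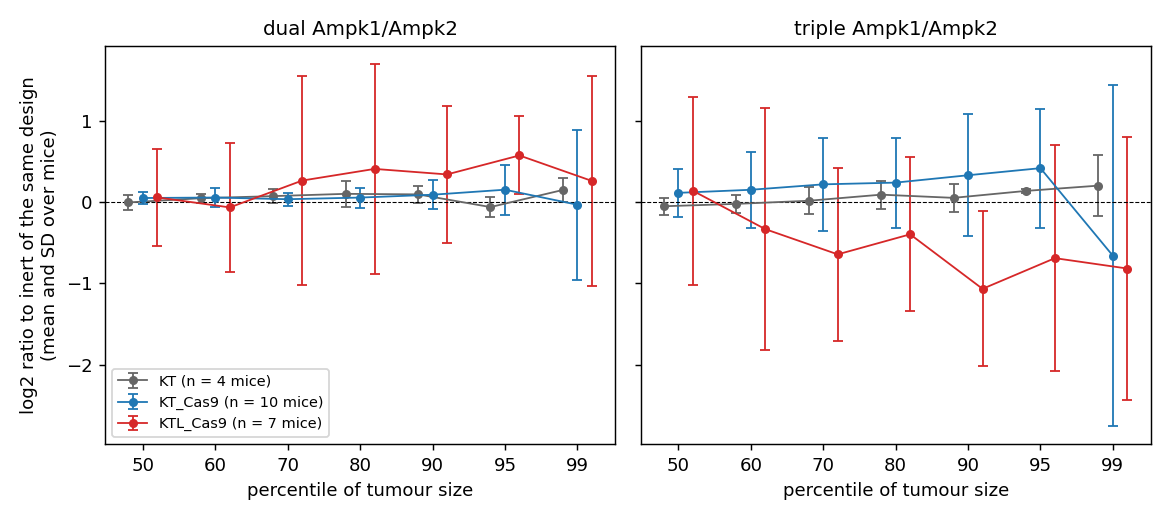
Log2 ratio of Ampk1/Ampk2 tumour size to inert tumour size of the same design and mouse (y axis, mean and SD over mice) at the 50th to 99th percentile of size (x axis), for the dual (left) and triple (right) vector in each genotype. The KT_Cas9 means of the dual vector stay between -0.03 and 0.15, and the KTL_Cas9 means of the triple vector go from 0.14 at the 50th to -1.07 at the 90th percentile.

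Tumour number showed the same closeness to inert in KT_Cas9 mice. It is given as the tumour count of a vector over the count of the inert vector of its design in the same mouse, on the log2 scale. This ratio also holds the share of each vector in the infecting pool, so the comparison with KT mice, which received guides that could not cut, is the one that bears on the guides. In KT mice the dual vector had ratios of 0.04, 0.06, 0.13 and 0.03, and the triple vector 0.00, -0.08, 0.06 and 0.07. In KT_Cas9 mice the dual vector had a lowest ratio of -0.15, a median of -0.00 and a highest of 0.15, with 5 of 10 mice above 0 and a mean of 0.00 ± 0.10 (SD, n = 10).

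The dual vector's number differed between KT_Cas9 and KT by -0.06 ± 0.04 (SE), with a 95% interval from -0.18 to 0.05 (exact permutation, adjusted p = 0.746). In number the triple vector ran in KT_Cas9 mice from -0.22 to 0.77 with a median of -0.04, and its difference from KT was 0.03 ± 0.10 (SE; 95% interval -0.28 to 0.35; adjusted p = 0.953). On number the exact permutation test called 0 of 24 vectors (0%) between KT_Cas9 and KT, 3 had an unadjusted p under 0.05, and edgeR called 0. The absence of a call is therefore no feature of the Ampk1/Ampk2 vectors. The highest triple value belonged to KT_Cas9 replicate 2.

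The summed cells of all tumours of a vector weigh the largest clones most. In KT_Cas9 mice the dual vector held 0.964% to 9.93% of all cells of named vectors, with a median of 1.52%, against 5.52% to 5.75% in KT mice. The dual inert vector moved the same way, with a median of 1.62% in KT_Cas9 and 5.42% in KT mice. The triple vector held a median of 0.607% in KT_Cas9 and 1.82% in KT mice, against 0.463% and 1.84% for triple inert. The shares of the Ampk1/Ampk2 vectors and of the inert vectors were thus both smaller in KT_Cas9 mice, which was not tested, while in number the dual vector had a median of 5.41% of all tumours in KT_Cas9 against 5.90% in KT mice.

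Against inert of the same mouse, the dual vector's cells in KT mice had log2 ratios of 0.01, 0.19, 0.10 and -0.01 and the triple vector's -0.08, -0.05, 0.09 and 0.02. The dual vector's cells in KT_Cas9 mice had a lowest log2 ratio of -1.36, a median of 0.01 and a highest of 2.16. The highest was that of replicate 6, where the clone whose barcode is shown above had an estimated 2.89e+06 cells and held 81.3% of the vector's cells. That clone was 20.3 times the size of the largest dual inert tumour of its mouse. The lowest was that of replicate 4, where 1 dual inert clone had an estimated 5.03e+06 cells and held 69.7% of the dual inert cells. The largest dual Ampk1/Ampk2 tumour of replicate 4 had 553412 cells. The mean of 0.12 ± 0.88 (SD, n = 10) differed from KT by 0.05 ± 0.28 (SE; 95% interval -0.92 to 1.06; exact permutation, adjusted p = 0.894). Without the largest tumour of each vector and mouse the dual ratios in KT_Cas9 ran only from -0.13 to 0.39, with a mean of 0.10 ± 0.17.

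For the triple vector the cells in KT_Cas9 mice ran from -4.21 to 2.14 with a median of 0.13, and the mean of 0.11 ± 1.71 (SD, n = 10) differed from KT by 0.11 ± 0.54 (SE; 95% interval -1.89 to 1.88; adjusted p = 0.894). The lowest value was again that of replicate 6, where the largest triple inert tumour had 1.40e+06 cells and the largest triple Ampk1/Ampk2 tumour 8575. Without the largest tumour of each vector the triple ratios still ran from -2.17 to 2.22, with a mean of 0.08 ± 1.06. In replicate 1 the triple clone whose barcode is shown above held 68.1% of the vector's cells and was 13.7 times the size of the largest triple inert tumour. On cells 9 of 24 vectors (37.5%) were called between KT_Cas9 and KT, all higher, and neither Ampk1/Ampk2 vector was among them.

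**Figure D3:**
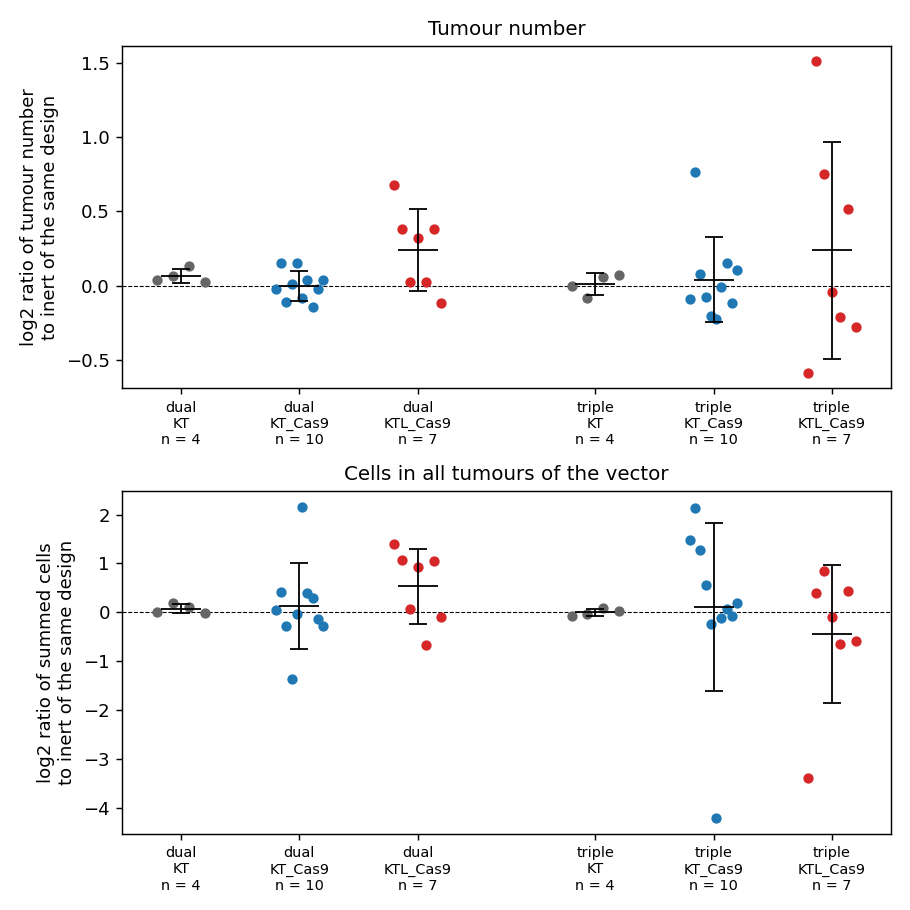
Number of tumours (top) and cells in all tumours (bottom) of both Ampk1/Ampk2 vectors as the log2 ratio to the inert vector of the same design and mouse (y axes), for each analysed mouse (points) by genotype (x axis); bars give mean and SD. The dual number ratios of KT and KT_Cas9 mice lie between -0.15 and 0.15, while the cell ratios of KT_Cas9 mice reach from -4.21 to 2.16.

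The plots of number and cells show that the spread of the cell ratios in KT_Cas9 mice comes with no matching spread of the dual number ratios. The share of a vector's cells that lay in its largest tumour had a median of 10.6% for the dual and 11.5% for the triple vector in KT_Cas9 mice. In KT mice the medians were 2.72% and 3.72%. Medians of the inert vectors were 11.2% (dual) and 10.97% (triple) in KT_Cas9 mice, and 4.58% and 5.07% in KT mice. The higher share in KT_Cas9 mice, which was not tested, was thus seen for the inert vectors as well. The largest 10% of dual Ampk1/Ampk2 tumours held 54.2% ± 18.7 of the vector's cells in KT_Cas9 mice, and the largest 10% of dual inert tumours 54.1% ± 18.6.

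The second question was whether the Ampk1/Ampk2 vectors act in tumours that already lack Lkb1, in KTL_Cas9 mice. There the 2 vectors did not give the same answer. Dual Ampk1/Ampk2 tumours had a geometric mean size of 46418 cells against 37108 for dual inert tumours, and triple Ampk1/Ampk2 tumours 22735 against 41649.5 for triple inert tumours. The size ratio of the triple vector was lower in KTL_Cas9 than in KT_Cas9 mice by the main measure, but that of the dual vector was not.

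The dual vector's log2 size ratios in KTL_Cas9 mice were lowest at -0.91, had a median of 0.53 and were highest at 1.66. They lay above 0 in 5 of 7 mice. The mean was 0.32 ± 0.87 (SD, n = 7). It differed from KT by 0.29 ± 0.33 (SE), with a 95% interval from -0.75 to 1.26 (exact permutation, adjusted p = 0.873). It differed from KT_Cas9 by 0.24 ± 0.33 (SE), with an interval from -0.33 to 0.82 (adjusted p = 0.490). The mice lay on both sides of inert, and the intervals allow sizes between 0.594 and 2.39 times those of KT mice.

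The triple vector's size ratios in KTL_Cas9 replicates 2 to 8 were -2.94, -1.43, -1.39, 0.00, -0.27, -0.21 and 0.12. Replicates 2, 3 and 4 thus lay far below inert and below all KT_Cas9 mice, and the other 4 lay within 0.3 of inert. The mean was -0.87 ± 1.11 (SD, n = 7), a ratio of 0.546 to inert. It was 1.01 ± 0.45 (SE) lower than in KT_Cas9 mice on the log2 scale (difference -1.01, 95% interval -1.88 to -0.19), and this passed the test (exact permutation, p = 0.0120, adjusted p = 0.0288). Against KT mice the difference of -0.91 ± 0.42 (SE; interval -2.28 to 0.10) did not pass (p = 0.109, adjusted p = 0.336).

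In the comparison of KTL_Cas9 with KT_Cas9, 11 of 24 vectors (45.8%) were called on size, 3 higher and 8 lower. Of the other 10 triple targeting vectors 8 were also below 0 there, with a median difference of -0.66, against 5 of the other 12 dual vectors and a median of 0.18. These sets differ in make-up, since 6 of those triple and 4 of those dual vectors targeted Lkb1, which Cre already deletes in KTL_Cas9 mice. The counts therefore do not compare the designs alone, and the part of the Lkb1 vectors in them was not tested. The call of the triple vector was lost under the median in place of the log-normal mean, where the difference was 0.03 (adjusted p = 0.974), and at a floor of 1000 cells, where it was -0.16 (adjusted p = 0.867). It was lost as well when any of KTL_Cas9 replicates 2, 3 or 4 or KT_Cas9 replicates 1 or 7 was left out, with differences from -1.18 to -0.67 over all 17 such omissions. In the 4 KTL_Cas9 mice with 21 to 26 triple inert tumours, replicates 2, 3, 7 and 8, the values were -2.94, -1.43, -0.21 and 0.12. In the 3 mice with 88 or more, replicates 4, 5 and 6, they were -1.39, 0.00 and -0.27. Any relation of these values to the inert tumour number was not tested. Between KTL_Cas9 and KT, 3 of 24 vectors (12.5%) were called on size, all higher, and neither Ampk1/Ampk2 vector was one of them.

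The percentiles show where in the distribution the triple value arose. In KTL_Cas9 mice the triple vector's log2 ratio to inert was 0.14 ± 1.15 at the 50th percentile, -0.33 ± 1.49 at the 60th and -0.64 ± 1.06 at the 70th (SD, n = 7). It was -0.40 ± 0.95 at the 80th, -1.07 ± 0.95 at the 90th and -0.69 ± 1.39 at the 95th. The mean thus lay below 0 at the percentiles above the 50th and not at the 50th itself, and of the percentiles given only at the 90th was it larger than its SD. At the 90th the triple vector lay below inert in 7 of 7 mice, against 3 of 7 at the 50th and 80th, 4 at the 60th and 5 at the 70th, 95th and 99th. The dual vector's ratio was 0.06 ± 0.60 at the 50th, 0.34 ± 0.84 at the 90th and 0.57 ± 0.48 at the 95th percentile. At the 95th its mean was larger than its SD, and it lay above inert in 6 of 7 mice.

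In KTL_Cas9 mice the share of tumours above the 95th percentile of inert was 7.71% ± 2.18 for the dual vector against 5.43% ± 0.342 of the dual inert tumours. For the triple vector it was 4.10% ± 3.78 against 6.19% ± 1.48 of the triple inert tumours. These shares rest on 4 to 23 dual and 0 to 8 triple tumours per mouse.

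Tumour numbers in KTL_Cas9 mice were far lower than in the other genotypes, with 47 to 229 dual and 14 to 172 triple Ampk1/Ampk2 tumours per mouse. The dual vector's log2 number ratio to inert ran from -0.12 to 0.68 with a median of 0.32, above 0 in 6 of 7 mice, with a mean of 0.24 ± 0.28 (SD, n = 7). It exceeded KT_Cas9 by 0.24 ± 0.11 (SE; 95% interval 0.04 to 0.44; exact permutation, p = 0.0175), which did not pass after adjustment over 24 vectors (adjusted p = 0.140), and 4 of the 7 mice lay above all KT_Cas9 mice. It exceeded KT by 0.18 ± 0.11 (SE; interval -0.15 to 0.50; adjusted p = 0.698).

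In KTL_Cas9 mice the triple vector's number ratio ran from -0.59 to 1.51 with a median of -0.04, and its mean of 0.24 ± 0.73 (SD, n = 7) differed from KT_Cas9 by 0.20 ± 0.29 (SE; interval -0.31 to 0.73; adjusted p = 0.881). Its difference from KT was 0.23 ± 0.28 (SE; interval -0.52 to 1.11; adjusted p = 0.828). The exact permutation test on number called 0 of 24 vectors (0%) both for KTL_Cas9 against KT_Cas9 and for KTL_Cas9 against KT, with 4 and 2 at an unadjusted p under 0.05, and edgeR called 1 and 0.

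Below the floor of 500 cells the picture for the triple vector was different. Counting barcodes of any size, the triple Ampk1/Ampk2 vector exceeded triple inert in 7 of 7 KTL_Cas9 mice, by log2 ratios from 0.07 to 1.54 with a mean of 0.87 ± 0.52. In KT_Cas9 mice the mean was 0.11 ± 0.14 and in KT mice 0.05 ± 0.05. The difference between KTL_Cas9 and KT_Cas9 was 0.76 (exact permutation, adjusted p = 0.00391), a setting chosen after the data were seen, and 12 of 24 vectors (50%) were called in it, 11 of them higher. Of the triple Ampk1/Ampk2 barcodes of KTL_Cas9 mice 36.4% ± 20.4 passed the floor, against 48.6% ± 14.4 of the triple inert ones. Of the dual Ampk1/Ampk2 barcodes 50.01% ± 17.2 passed it, against 45.3% ± 17.3 of the dual inert ones. For the dual vector the ratio of barcodes of any size in KTL_Cas9 mice was 0.09 ± 0.16. KTL_Cas9 replicate 1, which entered no comparison, had 401 triple Ampk1/Ampk2 barcodes of any size against 6 triple inert ones. Yet 0 of its tumours carried the triple Ampk1/Ampk2 vector. Whether barcodes below the floor stand for small tumours was not tested.

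The summed cells of the dual vector in KTL_Cas9 mice had log2 ratios to inert from -0.67 to 1.40 with a median of 0.94, and a mean of 0.53 ± 0.77 (SD, n = 7). The difference from KT_Cas9 was 0.41 ± 0.40 (SE; interval -0.48 to 1.27; exact permutation, adjusted p = 0.542). In replicate 3 the dual clone whose barcode is shown above held 39.1% of the vector's cells. Cells of the triple vector ran from -3.39 to 0.84 with a median of -0.10, and the mean of -0.44 ± 1.41 (SD, n = 7) differed from KT_Cas9 by -0.54 ± 0.76 (SE; interval -2.15 to 1.13; adjusted p = 0.592). In replicate 4 the triple clone whose barcode is shown above held 44.3% of the vector's cells. On cells 5 of 24 vectors (20.8%) were called between KTL_Cas9 and KT_Cas9, all lower, and 0 of 24 (0%) between KTL_Cas9 and KT, where 5 had an unadjusted p under 0.05 and edgeR called 5 and DESeq2 6. Neither Ampk1/Ampk2 vector was among the called vectors of the exact test. Against KT the cell differences were 0.46 (interval -0.47 to 1.21; adjusted p = 0.516) for the dual and -0.43 (interval -2.04 to 0.93; adjusted p = 0.861) for the triple vector.

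Within each genotype the ratios were also tested against 0. By an exact sign-flip test neither Ampk1/Ampk2 vector was called on size, number or cells in any genotype. Ratios of number and cells also hold the share of each vector in the infecting pool. Calls on them against 0 are therefore no measure of the guides alone. Between KT_Cas9 and KT, 0 of 24 vectors were called on number. In KT_Cas9 mice 19 of 24 vectors (79.2%) were called on size, 16 (66.7%) on number and 13 (54.2%) on cells. The dual vector had an adjusted p of 0.0891 on size there and the triple vector one of 0.498. In KTL_Cas9 mice 0 of 24 (0%) were called on size, with 7 at an unadjusted p under 0.05. The triple vector had p = 0.0625 and an adjusted p of 0.188 by the exact test. With 7 mice this test cannot go below 0.0156, and vectors at that p on size had an adjusted p of 0.0938. The 0 calls on size therefore do not show that effects were absent. On number 8 (33.3%) were called in KTL_Cas9 mice, and the dual vector had an adjusted p of 0.125. With 4 KT mice the exact test cannot go below 0.125, so nothing could be called there.

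How well the vectors agreed was examined in the same mice. In KT mice the dual and triple size ratios differed by -0.00 ± 0.12 on average (SD, n = 4), and in KT_Cas9 mice by -0.06 ± 0.52 (n = 10; exact sign-flip test, adjusted p = 0.648). In KTL_Cas9 mice the dual ratio was above the triple ratio in 6 of 7 mice, with a mean difference of 1.20 ± 1.51 (95% interval -0.05 to 3.05; exact test, p = 0.0625, adjusted p = 0.219 over 14 contrasts). The direction turned by median size, to -0.08, and at a floor of 5000 cells, where fewer than 4 of these mice were left, to -0.29. This difference was 1.26 larger in KTL_Cas9 than in KT_Cas9 mice (interval 0.20 to 2.34; exact permutation, p = 0.0154), which did not pass after adjustment over 21 comparisons (adjusted p = 0.0538).

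The 2 inert vectors themselves, which stand under these ratios, differed in size by 0.17 ± 0.76 (triple minus dual, SD, n = 7) in KTL_Cas9 mice and by -0.03 ± 0.20 (n = 10) in KT_Cas9 mice. The spread of the inert vectors in KTL_Cas9 mice is thus of the order of the spread of the dual Ampk1/Ampk2 ratios there. With both inert vectors pooled as the denominator, the triple vector's difference between KTL_Cas9 and KT_Cas9 was -0.88 (exact permutation, adjusted p = 0.0522).

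**Figure D4:**
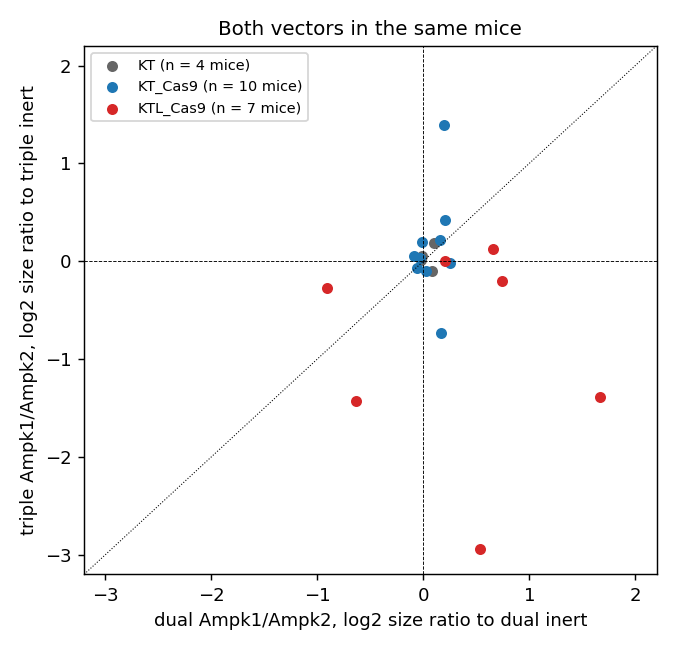
Size ratio of the dual (x axis) against the triple (y axis) Ampk1/Ampk2 vector in the same mouse, both as log2 ratio to inert of the same design; each point is a mouse and the dotted line marks equality. KT mice cluster at 0, KT_Cas9 mice spread along the y axis from -0.73 to 1.39, and 6 of 7 KTL_Cas9 mice lie below the line.

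Across mice the vectors' ratios were not clearly related, as the plot of one against the other shows. In KT_Cas9 mice the size ratios had a Pearson r of 0.23 (permutation p = 0.565, adjusted p = 0.935) and a Spearman rho of 0.22 (permutation p = 0.539), and r was 0.34 without the 2 mice farthest from the median dual value. In KTL_Cas9 mice r was -0.14 (permutation p = 0.779, adjusted p = 0.935) and rho 0.14 (permutation p = 0.783), with an r of -0.21 without the 2 farthest mice. For number r was 0.32 (permutation p = 0.399) in KT_Cas9 and 0.01 (permutation p = 0.974) in KTL_Cas9 mice. For cells r was -0.70 in KT_Cas9 mice (permutation p = 0.105, adjusted p = 0.631 over 6 relations), and it became 0.16 without replicates 4 and 6, so that the value rests on those mice.

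To place the Ampk1/Ampk2 vectors among the Lkb1 substrates, the mean of both size ratios was compared with other vectors of the same mice. In KT_Cas9 mice, with Lkb1 not floxed, tumours with the Ampk1/Ampk2 vectors were smaller than those with guides against Lkb1 itself or against several Sik kinases. The Ampk1/Ampk2 mean was below the mean of the 10 Lkb1 vectors in 10 of 10 KT_Cas9 mice, by -0.39 to -1.53 with a median of -0.82, and the mean difference was -0.83 ± 0.39 (SD; 95% interval -1.11 to -0.56; exact sign-flip test, adjusted p = 0.0137). It was below the 5 vectors against several salt-inducible kinases (Sik1, Sik2, Sik3) in 10 of 10 mice, by a mean of -0.84 ± 0.44 (interval -1.17 to -0.50; adjusted p = 0.0137). In KT mice the same contrasts were 0.03 ± 0.03 and 0.01 ± 0.04 (n = 4). The change from KT to KT_Cas9 was -0.86 for Lkb1 (exact permutation, adjusted p = 0.0210) and -0.85 for the Sik vectors (adjusted p = 0.0420). Both contrasts stayed called in KT_Cas9 when any single mouse was left out. By median size they were -0.05 and -0.03 and were not called (exact test, adjusted p = 0.328 and 0.6076).

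The other AMPK-related kinases gave values near those of Ampk1/Ampk2 in KT_Cas9 mice. The difference was 0.04 ± 0.24 from Nuak1/Nuak2 (interval -0.12 to 0.22), 0.04 ± 0.18 from Mark2/Mark3/Mark4 (interval -0.08 to 0.18) and -0.10 ± 0.21 from Snrk (interval -0.24 to 0.06), all n = 10. None passed the exact sign-flip test (adjusted p = 0.648, 0.648 and 0.432). Each of these kinases was targeted by 1 triple vector, so these differences are not averaged over vectors.

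In KTL_Cas9 mice the Ampk1/Ampk2 mean differed from the Lkb1 vectors, whose target is already deleted by Cre there, by -0.15 ± 0.65 (interval -0.80 to 0.43; n = 7; exact test, adjusted p = 0.648). Against the Sik multi-gene vectors the value was -1.91 ± 1.04 (interval -3.13 to -0.998), below 0 in 7 of 7 mice, with the smallest p that 7 mice allow (p = 0.0156), and it missed the threshold after adjustment (exact test, adjusted p = 0.0729). The differences were -0.43 ± 0.91 from Nuak1/Nuak2, 0.50 ± 0.94 from Mark2/Mark3/Mark4 and -0.42 ± 0.88 from Snrk. All 3 intervals reached past 0, from -1.30 to 0.44, from -0.45 to 1.57 and from -1.33 to 0.41.

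**Figure D5:**
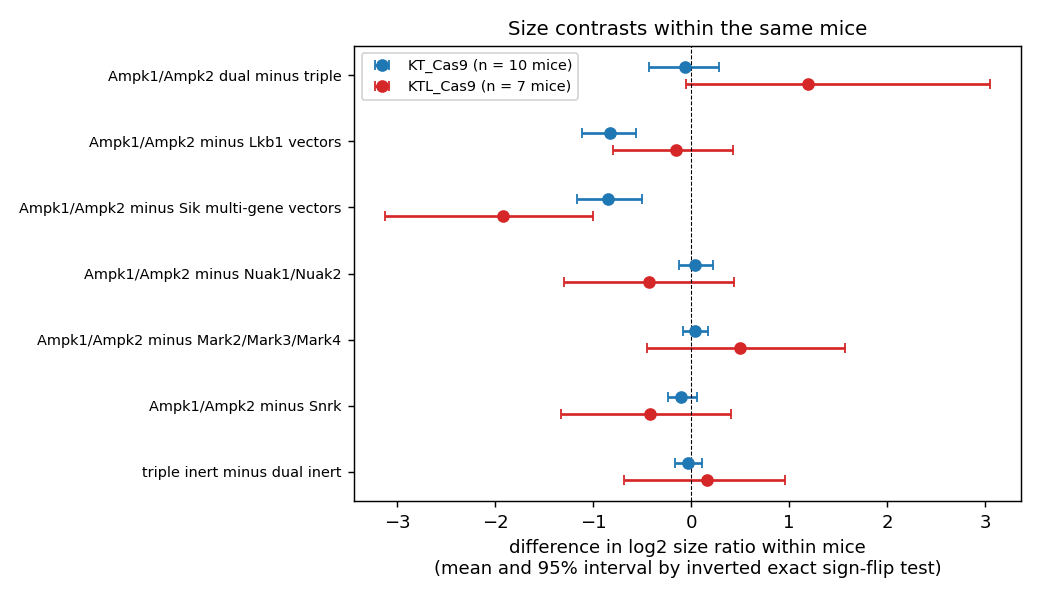
Within-mouse contrasts of log2 size ratio (x axis, mean and 95% interval from the inverted exact sign-flip test) in KT_Cas9 and KTL_Cas9 mice, for the Ampk1/Ampk2 vectors against each other and against the vectors to Lkb1, several Sik genes, Nuak1/Nuak2, Mark2/Mark3/Mark4 and Snrk, and for the inert vectors (y axis). In KT_Cas9 mice the contrasts with Lkb1 (-0.83) and the Sik multi-gene vectors (-0.84) lie below 0, and those with Nuak, Mark and Snrk lie between -0.10 and 0.04.

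The vectors whose size ratios were most like the Ampk1/Ampk2 mean over the 21 mice were found by the mean absolute difference in log2 ratio. The nearest was a triple vector with the second Lkb1 guide behind mU6, at 0.26, followed by a dual vector against Sik1 alone (first guide), at 0.28, and the triple vector against Mark2/Mark3/Mark4, at 0.35. Triple vectors share the triple inert denominator with the triple Ampk1/Ampk2 vector, which brings their ratios closer together.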

How the data were processed

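The deposited table holds, for genomic DNA of tumour-bearing lungs, 1 line per mouse, vector identifier and barcode. Per the file headers it gives a whole-number read count deposited without normalisation, each mouse's ratio of cells to reads, and an estimated cell number. The deposited cell number equals the count times the deposited ratio. The ratio appears to scale to a standard of 500000 cells, which the labels do not describe. The read processing is not given in the sources used here.

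Of 1019578 lines, 105870 were repeats, all from 1 mouse, and were dropped. Lines without a vector name (48400, with 1.76% of reads) were left out. Ampk1/Ampk2 barcodes shared by mice (3.56%, against 2.41% over all named vectors) were kept. Mice were grouped by the genotype in the labels and numbered in record order. One allele that all groups share is not reported here. Cells per tumour were summarised as the maximum-likelihood log-normal mean. A vector needed 5 tumours and 20 inert tumours of its design in a mouse, and a group 4 mice. Contrasts within mice, and tests between genotypes with 1 mouse left out, needed only 3 mice in a group. Of 23 labelled mice 21 were analysed.

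Differences between genotypes were tested by exact permutation of the mice, two-sided. KT_Cas9 with KT allows 1001 splits (smallest p 0.000999), KTL_Cas9 with KT 330 (0.00303), and both Cas9 genotypes 19448 (5.14e-05). Label permutation takes the spread of both groups as equal, which does not hold for the triple vector in KTL_Cas9 (SD 1.11) and KT_Cas9 mice (SD 0.53). Contrasts within mice used exact sign flips, p-values for correlations used pairings (all of them, or 100000 drawn for 10 mice), and 95% intervals came from inverting the exact tests. Adjustment was by Benjamini-Hochberg over 24 vectors, 14 contrasts, 21 contrasts between groups or 6 correlations, with a threshold of 0.05. By the rule for naming, the Ampk1/Ampk2 vectors are given in full, the vectors of the other kinases only in the contrasts with them, and the 3 nearest vectors by the mean absolute difference. The members, vector classes and tests were chosen with earlier results of these data known. Alternatives were other size summaries, floors, filters and denominators, mice left out, limma 3.58.1 on size ratios, and edgeR 4.0.16 and DESeq2 1.42.0 on counts of tumours or reads. The scripts (Python 3.11.15, SciPy 1.17.1, R 4.3.3) were tested on simulated data. No molecular identifiers separate PCR copies, so read numbers give no interval here, and errors and p-values rest on the differences between mice alone.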

Additional observations from a re-analysis of the deposited data

Results flagged for a closer look

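These 6 values of the Ampk1/Ampk2 vectors stood apart. Single mice were compared with the others of their group by Dixon's test in 21 groups of 4 to 10 mice, where chance alone flags about 1 group in 20.

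The triple vector's log2 number ratio of 0.77 in KT_Cas9 replicate 2 lay far above those of the other 9 mice. In the same mouse the dual minus triple size contrast of -1.20 lay far below the others. That mouse had 92713 reads, the fewest of all analysed mice, and 27 triple inert tumours, and the part of either in these values was not tested.

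The dual vector's cells in KT_Cas9 replicate 6, at 2.16, lay far above the other mice, and 81.3% of them belonged to 1 clone. In the same mouse the triple vector's cells, at -4.21, lay far below the others, and there 1 clone held 77.9% of the triple inert cells. Without the largest tumour of every vector the values were 0.02 and -2.17.

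The triple vector's cells in KTL_Cas9 replicate 2, at -3.39, lay far below the other mice, with 14 triple Ampk1/Ampk2 and 21 triple inert tumours in that mouse.

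The triple vector's size ratio differed between the Lkb1-deleted and the Lkb1-proficient genotype, being -1.01 lower in KTL_Cas9 than in KT_Cas9 mice by the exact permutation test of that difference itself (adjusted p = 0.0288), and the dual vector's difference of 0.24 (adjusted p = 0.490) did not pass the same test.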

How the results depend on the processing

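Of 518 values recomputed under other settings, 420 kept their direction and their side of the threshold (for counts of called vectors, stayed within 1.5 times), and of 497 values with 1 mouse left out 462 did. Ratios to inert and the contrasts were paired within mice, while genotypes, being different animals, were compared unpaired. The cause of each change below was not tested, except where fewer mice raise the smallest p. The number of inert tumours, 21 to 26 of the triple design in 4 of 7 KTL_Cas9 mice, limits the precision of the ratios there. At a floor of 5000 cells too few mice were left for a value of the triple vector between groups. The contrasts within mice at that floor rest on fewer than 4 mice of a genotype, where the exact sign-flip test cannot call any. Settings without a cell floor, without the 2 KT_Cas9 mice with under 50 triple inert tumours, and without the largest tumours were added after seeing the data.

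The triple size difference between KTL_Cas9 and KT_Cas9 (-1.01, called) was not called with pooled inert vectors (-0.88), arithmetic mean size (-0.74), a floor of 1000 cells (-0.16), at least 10 reads per tumour (-0.78), no shared barcodes (-0.68), the 2 mice left out (-0.87) or the largest tumours left out (-0.80), with adjusted p from 0.0522 to 0.867, and by median size it was 0.025. Against KT it was 0.19 by median size. Over all 14 alternatives its adjusted p against KT_Cas9 ran from 0.000411 to 0.974. The contrasts of Ampk1/Ampk2 with Lkb1 and with the Sik multi-gene vectors in KT_Cas9 mice were not called by median size (-0.047 and -0.029), at floors of 1000 (-1.47 and -1.69) and 5000 cells (-2.16 and -2.77), or without the 2 mice (-0.94 and -0.97), where the smaller number of mice raises the smallest p. The triple number difference between KTL_Cas9 and KT_Cas9 was called at a floor of 200 cells (0.58) and without a floor (0.76). The triple minus dual inert contrast in KT_Cas9 mice was called without the largest tumours (-0.10).

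The following differences, not called in the main setting or in the settings named here, changed sign. For KT_Cas9 against KT, dual size was -0.0042 at the 90th percentile, -0.037 at a floor of 200 cells and -0.041 without a floor. Triple size was -0.25 at a floor of 1000 cells, -0.088 with 10 reads and -0.045 without the 2 mice. Triple number was -0.056 with 10 reads, -0.033 without shared barcodes and -0.033 without the 2 mice. Dual cells were -0.040 with pooled inert, -0.48 at 5000 cells and -0.039 without shared barcodes. Triple cells were -0.10 at 1000 cells, -0.13 with 10 reads, -0.25 without shared barcodes and -0.10 without the 2 mice. Triple cells in KTL_Cas9 were 0.14 (against KT) and 0.24 (against KT_Cas9) at 1000 cells, and 0.19 and 0.075 with at least 20 tumours per vector.

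Within KT_Cas9 mice, dual minus triple size was 0.054 by arithmetic mean, 0.011 at 200 cells, 0.33 at 1000 cells, 0.12 with 10 reads, 0.012 without a floor and 0.093 without the 2 mice. The contrast with Nuak1/Nuak2 was -0.059 by arithmetic mean, -0.049 with 10 reads and -0.011 without a floor. That with Mark2/Mark3/Mark4 was -0.017 at the 90th and -0.065 at the 95th percentile, -0.039 at 200 cells, -0.067 without a floor, -0.012 without the 2 mice and -0.011 without the largest tumours. That with Snrk was 0.052 by median size. The inert contrast was 0.0022 by median size, 0.18 at 1000 cells and 0.022 with 10 reads. In KTL_Cas9 mice, dual minus triple size was -0.082 by median size and -0.29 at 5000 cells. The contrasts with Lkb1 and Nuak1/Nuak2 were 0.23 and 0.074 at 1000 cells. The inert contrast was -0.70 by median size, -0.59 at 5000 cells, -0.014 without shared barcodes and -0.18 without the largest tumours.

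Counts of called vectors of 24 moved as follows. On size, KT_Cas9 against KT gave 0 by median size, 8 at 5000 cells and 7 without a floor. KTL_Cas9 against KT gave 0 with pooled inert, by median, 90th or 95th percentile, arithmetic mean, at 200 cells and without a floor, 1 at 5000 cells and 1 by limma. KTL_Cas9 against KT_Cas9 gave 7 by median, 5 by arithmetic mean, 6 at 1000 cells, 7 at 5000 cells and 6 without shared barcodes. On number, KT_Cas9 against KT gave 6 without the 2 mice, and KTL_Cas9 against KT_Cas9 gave 2 with pooled inert, 6 at 200 cells, 1 without shared barcodes, 12 without a floor, 5 without the 2 mice and 1 by edgeR. On cells, edgeR and DESeq2 gave 14 and 14 for KT_Cas9 against KT, 5 and 6 for KTL_Cas9 against KT, and 10 and 11 for KTL_Cas9 against KT_Cas9, and leaving out the largest tumours gave 3 for KTL_Cas9 against KT.

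With 1 mouse left out, the KTL_Cas9 minus KT_Cas9 difference ran from -1.18 to -0.67 for triple size (not called without KT_Cas9 replicate 1 or 7 or KTL_Cas9 replicate 2, 3 or 4), from 0.17 to 0.30 for dual number (called in 1 of 17) and from -0.014 to 0.34 for triple number. The KT_Cas9 minus KT difference ran from -0.038 to 0.20 for triple size, -0.053 to 0.057 for triple number, -0.18 to 0.21 for dual cells and -0.12 to 0.59 for triple cells, and triple cells in KTL_Cas9 minus KT from -0.65 to 0.058. The contrasts in KT_Cas9 mice ran from -0.17 to 0.067 for dual minus triple, -0.016 to 0.073 for Nuak1/Nuak2 and -0.0011 to 0.069 for Mark2/Mark3/Mark4, and the inert contrast in KTL_Cas9 from -0.042 to 0.31. Called vectors ranged from 8 to 14 (size) and 7 to 14 (cells) for KT_Cas9 against KT, 0 to 3 (size) for KTL_Cas9 against KT, and 0 to 3 (number) and 4 to 10 (cells) for KTL_Cas9 against KT_Cas9.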

Other observations

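KTL_Cas9 replicate 1, which entered no comparison, had 55852 reads of named vectors and 17 tumours. Of these 1 carried the dual and 0 the triple Ampk1/Ampk2 vector. Counting barcodes of any size, the mouse had 401 of the triple and 29 of the dual Ampk1/Ampk2 vector. Barcodes of the triple inert vector numbered 6 and those of the dual inert vector 82.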
